A study of Mus musculus with 2 samples.

Results

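The regions described here are 8 imprinted loci of the mouse genome, named for 9 genes: Dlk1 and Meg3, Grb10, Rasgrf1, Mest, Peg3, Gnas, Snrpn and Igf2r. A CTCF peak was counted as a member when its midpoint lay within a fixed span around the gene or genes, on the mm9 build. The spans were chr12 from 110.6 to 111.1 Mb (Dlk1-Meg3), chr11 from 11.7 to 12.05 Mb (Grb10), chr9 from 89.65 to 90.05 Mb (Rasgrf1) and chr6 from 30.55 to 30.85 Mb (Mest). The others were chr7 from 6.5 to 6.85 Mb (Peg3), chr2 from 174.0 to 174.3 Mb (Gnas), chr7 from 66.9 to 67.4 Mb (Snrpn) and chr17 from 12.75 to 13.1 Mb (Igf2r). Together they cover 3.05 Mb and held 81 of the 44424 peaks of embryonic stem (ES) cells and 94 of the 53736 peaks of embryonic fibroblasts (MEFs).

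CTCF binding was measured by chromatin immunoprecipitation and sequencing, with 1 library for each cell type and the same Millipore antibody for both. ES cells are pluripotent cells of the early embryo, and their genetic background is given as Bl3.10 and C57BL. MEFs are fibroblasts cultured from embryos past gastrulation, here of C57BL6 background. Cell type, background and library therefore cannot be told apart. The labels do not say how many cultures went into a library, and read depth is unknown. The peak lists do not separate the maternal from the paternal copy of a locus.

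Imprinted genes are expressed mainly from the maternal or mainly from the paternal chromosome. Each such cluster has a control region whose DNA is methylated on a single parental copy. CTCF, a zinc-finger protein that marks insulators and the ends of chromatin loops, is known to bind less well to some sites when they are methylated, which makes imprinted control regions a classical place to look for it. Among the genes here, Dlk1, Rasgrf1, Mest, Peg3 and Snrpn are expressed chiefly from the paternal copy. Meg3, Grb10 (in most tissues) and Igf2r are expressed chiefly from the maternal copy. Gnas produces several transcripts with different parental origins.

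In the gene order of RefSeq (GRCm38.p6), Dlk1 lies next to Begain and is followed by Meg3 and Rtl1, and Grb10 lies between Ddc and Cobl. Rasgrf1 lies between Ankrd34c and Ctsh, Mest between Cep41 and Copg2, and Peg3 between Zim1 and Usp29. Gnas lies between Npepl1 and Nelfcd. The position of a peak inside a gene, an exon or a methylated control region was not analysed here, because the gene table at hand follows another build than the peaks.

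The sequences under the peaks were not analysed here for the same reason. The promoters of the genes could be read without placing a peak. RefSeq (GRCm38.p6) gave 19 promoter windows of 300 bases for all 9 genes, from 250 bases before to 50 bases after a transcript start. They were searched on both strands for AGGGGGC, part of the core of the known CTCF motif, which was chosen after several forms of the core had been looked at. A match was found in 4 of the 19 windows, 3 of Gnas and 1 of Rasgrf1, and in 10.6% of all 32851 promoter windows. The distinct matches are shown because they are the promoter matches found among these genes. They are printed 5′ to 3′ on the plus strand, on which both genes lie, and capitals mark the match. In the sequences Gnas 1 and Gnas 2 the capitals read as the motif on the opposite strand. The Gnas sequences lie at chr2:174327530-174327584 (in 2 overlapping windows), chr2:174329784-174329838 and chr2:174329841-174329895, and the Rasgrf1 sequence at chr9:89909788-89909824, all on GRCm38.p6.
Gnas 1: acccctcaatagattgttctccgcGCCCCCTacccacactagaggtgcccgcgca
Gnas 2: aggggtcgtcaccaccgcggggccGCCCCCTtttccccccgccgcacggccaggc
Gnas 3: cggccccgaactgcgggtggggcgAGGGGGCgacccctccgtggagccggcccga
Rasgrf1: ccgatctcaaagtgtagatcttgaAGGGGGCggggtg
A match of letters is not a binding site, and the matches were not set against the peaks, whose positions are on mm9.

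The 8 loci differed widely in how much CTCF they carried and in how far the cell types coincided. Grb10 held most peaks, with 21 in ES cells and 25 in MEFs, and most of them were shared between the cell types. Dlk1-Meg3 followed with 18 and 19 peaks, then Rasgrf1 with 12 and 12. Gnas and Igf2r each held 9 ES and 13 MEF peaks, and Peg3 held 7 and 9. Mest held 5 ES peaks and 1 MEF peak, and the Snrpn span held no ES peak and 2 MEF peaks.

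**Figure D1:**
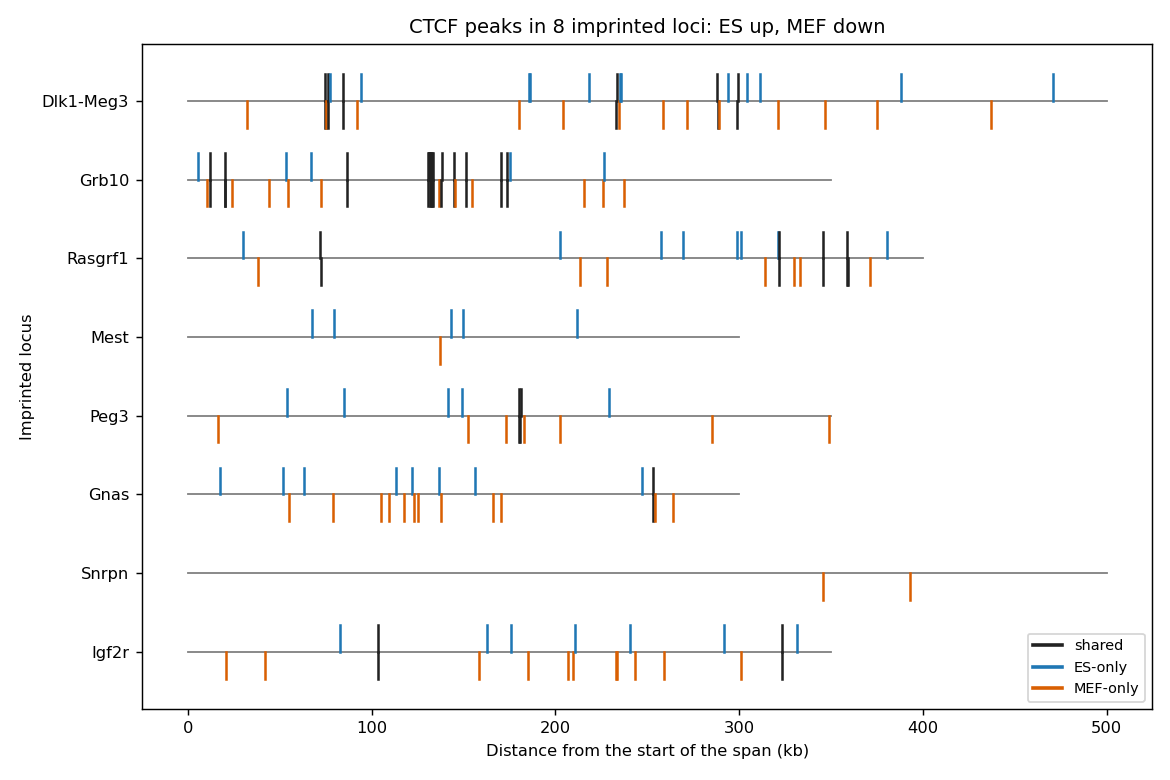
Position of every CTCF peak in the 8 spans, as the distance of the peak's midpoint from the start of the span in kb. Ticks above a line are ES peaks and ticks below are MEF peaks, coloured black where a peak of the other list overlaps and blue (ES-only) or orange (MEF-only) otherwise. Black ticks crowd in the middle of the Grb10 line, and the Snrpn line carries 2 MEF ticks alone.

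Shared peaks are those with at least 1 bp in common with a peak from the other cell type. In the 8 loci 31 of 81 ES peaks were shared (38.3%, 95% Wilson interval 28.4 to 49.2), against 26.1% of the whole ES list. Of the 94 MEF peaks, 30 were shared (31.9%, 23.4 to 41.9), against 21.6% of the whole MEF list. These excesses came with the Grb10 locus. Without it, 15 of 60 peaks were shared in ES cells (25.0%, 15.8 to 37.2) and 16 of 69 were in MEFs (23.2%, 14.8 to 34.4), and both intervals include the value of the whole list. With 1 library for each cell type there is no replicate error and no p-value. The intervals cover counting error only, and they treat peaks as independent although neighbouring peaks overlap at Grb10.

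Locus by locus, the shared percentage ran from 76.2% of ES peaks at Grb10 (54.9 to 89.4) to none of the 5 at Mest. It was 33.3% at Dlk1-Meg3 (16.3 to 56.2), 33.3% at Rasgrf1 (13.8 to 60.9), 28.6% at Peg3 (8.22 to 64.1), 22.2% at Igf2r (6.32 to 54.7) and 11.1% at Gnas (1.99 to 43.5). Grb10 was the only one of these loci whose interval lay wholly above the percentage of the whole ES list, and no interval lay wholly below it. The same percentages for MEF peaks were 56.0% at Grb10 (37.1 to 73.3), 41.7% at Rasgrf1 (19.3 to 68.0), 31.6% at Dlk1-Meg3 (15.4 to 54.0) and 7.69% at Gnas (1.37 to 33.3).

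**Figure D2:**
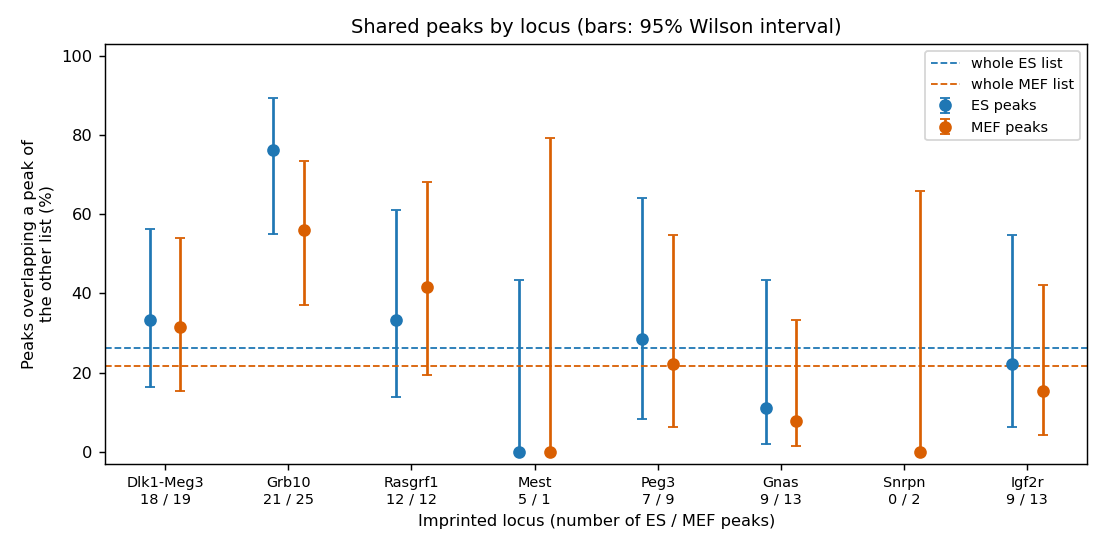
Percentage of the ES peaks (blue) and MEF peaks (orange) of each locus that overlap a peak of the other list, with 95% Wilson intervals and the numbers of peaks under each name. The dashed lines are the whole lists, 26.1% and 21.6%. At Grb10 both intervals lie above their line, and Snrpn has no ES point because it held no ES peak.

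Summed over the 8 loci, the spans were richer in CTCF peaks than the genome around them, though not every locus was. In ES cells they carried 26.6 peaks per Mb (95% Poisson interval 21.1 to 33.0), against 17.6 per Mb on all autosomes. In MEFs they carried 30.8 peaks per Mb (24.9 to 37.7), against 21.1 on all autosomes. Flanks of the same length on either side of each span had 19.2 ES peaks per Mb (15.9 to 23.0) and 18.4 MEF peaks per Mb (15.1 to 22.1). The intervals of span and flanks overlapped for ES cells and did not overlap for MEFs. Grb10 again had a large part in this: without it the spans had 22.2 ES peaks per Mb (17.0 to 28.6) and 25.6 MEF peaks per Mb (19.9 to 32.3), intervals that include the autosomal values.

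Single loci departed from their flanks in different directions. Grb10 was denser than its flanks in both lists, with 60 ES peaks per Mb (37.1 to 91.7) against 14.3 (6.85 to 26.3) and 71.4 MEF peaks per Mb (46.2 to 105.4) against 14.3 (6.85 to 26.3). Part of this came from a block of 13 neighbouring peaks in the Grb10 span, described below. Without the block the ES density was 37.1 (19.8 to 63.5), an interval that overlaps that of the flanks. The MEF density was then 57.1 (34.9 to 88.3), an interval that still does not overlap it. Dlk1-Meg3 had 38.0 MEF peaks per Mb (22.9 to 59.3) against 11.0 (5.49 to 19.7), intervals that do not overlap. Its ES density of 36.0 (21.3 to 56.9) against 22.0 (13.8 to 33.3) was within overlapping intervals. The intervals of span and flanks also overlapped in both lists at Rasgrf1, Gnas, Peg3, Snrpn and Igf2r. In value, Rasgrf1 was above its flanks, with 30 against 12.5 ES and 30 against 7.5 MEF peaks per Mb. So were Gnas (30 against 16.7 and 43.3 against 15) and Igf2r (25.7 against 21.4 and 37.1 against 32.9). Snrpn was below its flanks, with 0 against 10 ES and 4 against 7 MEF peaks per Mb. Peg3 was below in ES cells (20 against 30) and above in MEFs (25.7 against 22.9). Mest was poorer than its flanks in MEFs, with 3.33 peaks per Mb (0.0844 to 18.6) in the span and 50 (33.7 to 71.4) around it, while its ES densities, 16.7 and 31.7, had overlapping intervals. The flanks of Mest held 30 MEF and 19 ES peaks in 600 kb.

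**Figure D3:**
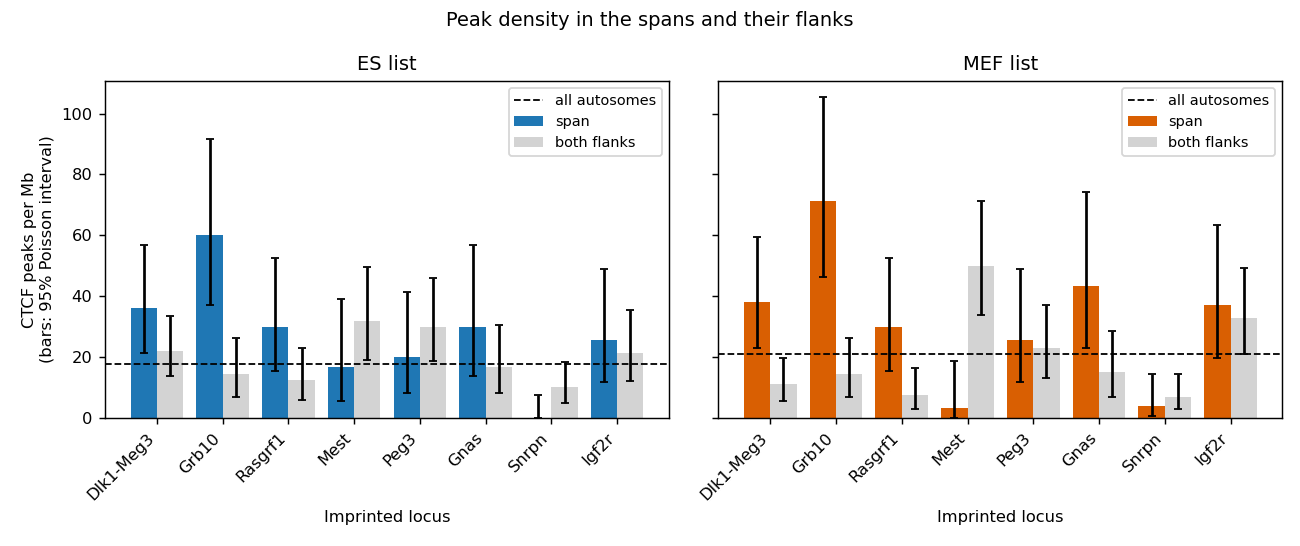
CTCF peaks per Mb in each span (coloured bars) and in both of its flanks (grey bars), ES list on the left and MEF list on the right, with 95% Poisson intervals and the autosomal density as a dashed line. The Grb10 bar stands highest in both lists, at 60 and 71.4 per Mb. Mest is the locus where the grey bar towers over the coloured one in MEFs.

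The MEF list contributed 53.7% of all peaks in the loci (46.3 to 60.9), close to 54.5% on all autosomes. By locus this percentage was between 50% at Rasgrf1 and 59.1% at Gnas and Igf2r for all but Mest and Snrpn. It was 16.7% at Mest (3.01 to 56.4), with 6 peaks in all, and both peaks at Snrpn were MEF peaks. Every one of these intervals included the autosomal value, so none of the loci could be called ES-rich or MEF-rich at these peak numbers.

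Grb10 encodes an adaptor protein that binds the insulin and IGF receptors and restrains growth. Its span stood apart through a block of 13 neighbouring peaks, 8 of ES cells and 5 of MEFs, at chr11:11830506-11833590. Peaks were joined into such a place when they lay within 500 bp of each other. Of the 78161 places made this way on the autosomes, 30 held at least as many peaks and 50 were at least as long as its 3085 bp, while 82.9% consisted of a single peak. Such blocks were therefore rare but not particular to Grb10.

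The peaks of the block ranked near the top of both lists. The deposited score has no stated definition, so it was read only as a percentile, the percentage of the same list with an equal or lower score. In ES cells the 8 scores of the block ran from 181 to 605, which correspond to percentiles 96.0 to 99.8 with a median of 99.6. In MEFs the 5 scores were 351, 114, 86, 287 and 363 from left to right, and their percentiles ran from 85.9 to 99.8 with a median of 99.7. All ES peaks and 4 of the 5 MEF peaks of the block thus lay above percentile 90. A high score in an undefined scale need not mean strong binding, and the control signal at this place was not analysed here.

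**Figure D4:**
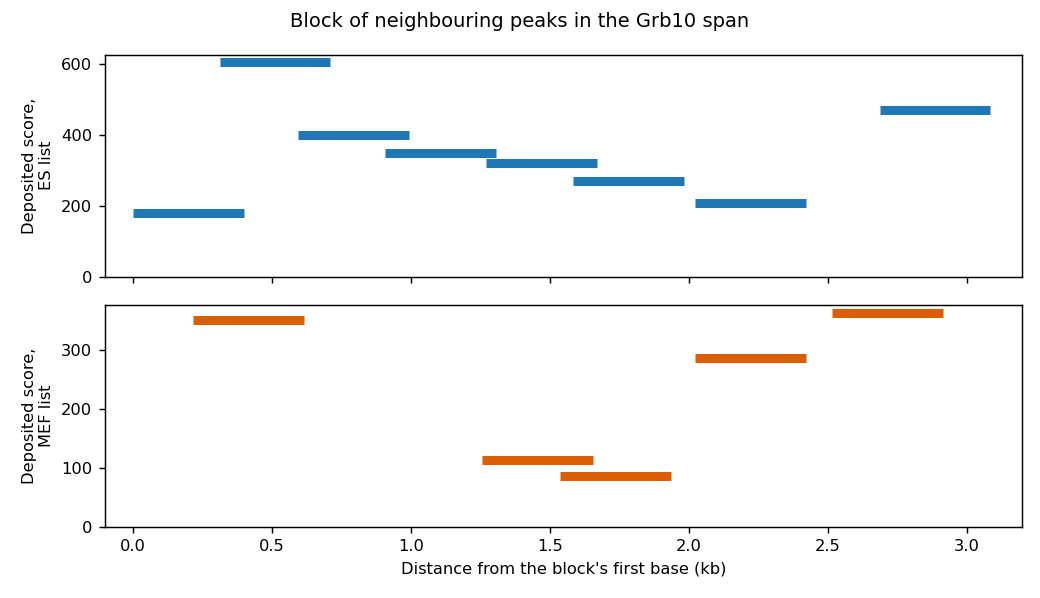
The 13 peaks of the block in the Grb10 span, drawn to scale as bars from their first to their last base, with the deposited score of each list on its own axis. In the ES panel the bars follow each other with scores between 181 and 605. In the MEF panel high bars stand at both ends, with 2 lower ones (114 and 86) between them.

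Inside the block the lists did not place their peaks alike. A pair of peaks at chr11:11832529-11832927 had identical coordinates in both cell types, with percentiles 97.6 in ES cells and 99.7 in MEFs. The highest ES peak, at chr11:11830818-11831216 with a score of 605, lay 97 bp from the MEF peak at chr11:11830721-11831119. The last pair, at chr11:11833192-11833590 in ES cells and chr11:11833022-11833420 in MEFs, lay 170 bp apart. The MEF peak at 11830721 was the nearest partner of 3 ES peaks, so that shared peaks there are not all separate sites. When an overlap of 50% of both peaks was asked for, the shared percentage of ES peaks at Grb10 was 52.4% in place of 76.2%.

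Sharing at Grb10 did not rest on the block alone. Outside the block 8 of 13 peaks were shared in ES cells (61.5%, 35.5 to 82.3) and 9 of 20 were in MEFs (45%, 25.8 to 65.8). Dense regions had more shared peaks in general. In the 141 autosomal windows of 350 kb with at least as many peaks as the Grb10 span, 39.8% of ES peaks and 40.2% of MEF peaks were shared. In 1 of these windows the ES percentage was at least that of Grb10, and in 9 the MEF percentage was.

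The shared sites of Grb10 outside the block lay on both of its sides. The highest of them in MEFs was chr11:11711941-11712339, at percentiles 94.2 (ES) and 96.2 (MEF), with the MEF peak 24 bp away. The highest in ES cells, chr11:11851244-11851642 to the right of the block, had percentiles 96.6 and 92.2. These 2 sites were high in both lists, unlike the remaining ones.

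Ranks diverged at the others. At chr11:11844745-11845143 the percentile was 89.1 in ES cells and 27.7 in MEFs, and at chr11:11873330-11873728 it was 13.3 and 76.3. At chr11:11870351-11870749 it was 65.3 and 89.7, and at chr11:11720192-11720590 it was 63.6 and 17.8. The sites chr11:11786223-11786621 (4.79 and 44.8) and chr11:11838135-11838533 (72.9 and 35.1) also differed. Their partners lay 283 and 379 bp away, the latter near the limit of overlap. The same place could thus be a high call in one list and a low call in the other.

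The highest MEF-only peak of Grb10, chr11:11845361-11845759, had percentile 96.5 and lay 616 bp from an ES peak. The highest ES-only peak, chr11:11874924-11875322, had percentile 53.3 and lay 1.55 kb from a MEF peak. Peaks ended well before the right border of the span. From 11937436 to 12191391, a stretch of 254.0 kb of which 112.6 kb lay inside the span, neither list had a peak. Of all autosomal stretches between peaks, 0.707% were at least as long. Stretches named here and at the loci below were picked as the longest of their span. Shares taken over all single stretches are therefore low in part by selection.

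Dlk1 encodes a Notch-related membrane protein that regulates growth, and Meg3 is the long noncoding RNA that opens the maternal transcripts of the same cluster. Their span held 6 shared sites, 12 ES-only and 13 MEF-only peaks. A first group lay near its left end, with shared sites at chr12:110674404-110674802, chr12:110675931-110676329 and chr12:110684304-110684702. Their partners lay 34, 10 and 59 bp away. A stretch of 85.5 kb without a peak followed, from 110694664 to 110780185, and peaks then resumed in both lists.

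The second group of shared sites lay to the right of this stretch, at chr12:110833128-110833526, chr12:110887994-110888392 and chr12:110899091-110899489. In ES cells the last of them had the highest rank of the 6, percentile 89.8, against 61.3 in MEFs. The first site of the span went the other way, at percentile 6.37 in ES cells and 73.7 in MEFs. The remaining 4 sites lay at 49.2 and 66.6, 27.8 and 17.8, 10.9 and 56.9, and 11.6 and 10.9 in ES cells and MEFs, in order. No shared site of Dlk1-Meg3 was above percentile 90 in either list.

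Several unshared peaks of this cluster were near misses. The highest ES-only peak, chr12:110834930-110835328 at percentile 82.9, lay 446 bp from a MEF peak and so missed an overlap by less than the width of a peak. The highest MEF-only peak, chr12:110631987-110632385 at percentile 91.8, was isolated, 42.4 kb from the nearest ES peak. Of the 13 MEF-only peaks, 3 had an ES peak within 1 kb (23.1%, against 5.86% of MEF-only peaks on all autosomes) and 7 had none within 10 kb (53.8%, against 60.2%). The MEF-only peaks starting at 110675150 and 110888890 lay 746 and 896 bp from ES peaks that already overlapped another MEF peak. Of the 12 ES-only peaks, 1 had a MEF peak within 1 kb (8.33%, against 7.23% on all autosomes).

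Rasgrf1 encodes an exchange factor that activates Ras and is expressed from the paternal copy in the newborn brain. It was the locus where ES ranks exceeded MEF ranks at all 4 shared sites, against 42.3% of pairs in the whole list. The 2 pairs of Igf2r and the 1 pair of Gnas went the other way. So few pairs do not set a direction for a locus, and 1 Rasgrf1 pair differed by only 1.48 points. The peaks of the Rasgrf1 span as a whole had a median percentile of 68.9 in ES cells and 36.1 in MEFs. The 4 shared sites were chr9:89721817-89722215 (percentile 76.6 in ES cells and 19.2 in MEFs), chr9:89971720-89972118 (74.2 and 16.3), chr9:89995599-89995997 (86.1 and 84.6) and chr9:90008588-90008986 (67.8 and 55.3). The partners lay 261, 34, 16 and 71 bp away. A second MEF peak, 316 bp from the last ES peak, overlapped it too, which is why 5 MEF peaks but 4 ES peaks were shared.

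The left and right parts of the Rasgrf1 span were separated by 129.7 kb without any peak, from 89722477 to 89852131, and 3.45% of autosomal stretches were at least as long. The stretch was picked as the longest of the span, so this percentage does not show that it was unusual. The highest ES-only peak, chr9:89679842-89680240 at percentile 89.1, lay 8.04 kb from a MEF peak. The highest MEF-only peak, chr9:89963693-89964091 at percentile 79.7, lay 7.19 kb from an ES peak. Of the 8 ES-only peaks 5 had no MEF peak within 10 kb (62.5%), near the 51.9% of ES-only peaks on all autosomes.

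Peg3 encodes a large zinc-finger protein expressed from the paternal copy. Its only shared peaks formed a pair in the middle of the span. In ES cells they lay at chr7:6680065-6680463 and chr7:6680878-6681276, at percentiles 45 and 34.1. The MEF partners, at chr7:6679990-6680388 and chr7:6680581-6680979, both had a score of 43 and percentile 40.9. The pair was thus of middling rank in both lists and lay where both cell types had peaks side by side.

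The highest peak of the Peg3 span was ES-only. It lay at chr7:6641424-6641822 with percentile 94.8, and the nearest MEF peak was 11.1 kb away. The highest MEF-only peak, chr7:6785126-6785524 at percentile 86.3, lay 56.0 kb from the nearest ES peak. Unshared peaks were far from the other list in general, with medians of 26.8 kb for the 5 ES-only and 21.4 kb for the 7 MEF-only peaks. The longest stretch without a peak, 63.1 kb, ran from 6785525 to 6848618.

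Gnas encodes the stimulatory G protein alpha subunit, together with alternative and antisense transcripts. In its span a single site overlapped, at chr2:174253080-174253478 in ES cells and 116 bp away in MEFs, with percentiles 46.0 and 67.7. The other 8 ES and 12 MEF peaks had no partner. The intervals of the shared percentages at Gnas, given above, include the 26.1% and 21.6% of the whole lists, and the shared site fell outside when the span was made 50 kb shorter on both sides. The median distance of these unshared peaks to the other list was 4.91 kb for ES-only and 3.86 kb for MEF-only peaks, against 10.8 and 15.1 kb for unshared peaks on all autosomes. The Gnas span was also denser in value, with 30 ES and 43.3 MEF peaks per Mb against 17.6 and 21.1 on the autosomes.

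The closest of these neighbours lay 1.14 to 1.24 kb apart. The highest ES-only peak of Gnas, chr2:174136357-174136755 at percentile 84.4, had a MEF peak 1.24 kb away. The highest MEF-only peak, chr2:174055113-174055511 at percentile 83.1, had an ES peak 3.71 kb away. No peak of the Gnas span exceeded percentile 90 in its list. The longest stretch without a peak, 76.2 kb, ran from 174170635 to 174246858. The ES-only peak chr2:174246859-174247257 and then the shared site followed on its right.

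Igf2r encodes the receptor that removes the growth factor IGF2, and its antisense RNA Airn starts within the gene. The span had 2 shared sites. At chr17:12853417-12853815 the MEF partner lay 51 bp away, and the percentiles were 88.4 in ES cells and 91.3 in MEFs. At chr17:13073251-13073649 it lay 230 bp away, with percentiles 64.5 and 88.8. Both sites therefore ranked above the median of both lists.

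Between them lay 5 of the 7 ES-only peaks and 9 of the 11 MEF-only peaks. The highest of each kind were neighbours, the ES-only peak at chr17:12990290-12990688 with percentile 95.5 and the MEF-only peak at chr17:12993040-12993438 with percentile 81.5, 2.75 kb apart. The longest stretch of the Igf2r span without a peak was 54.5 kb, from 12853816 to 12908294. It was the shortest such maximum among the 8 loci.

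Mest encodes a protein related to hydrolases and is expressed from the paternal copy in mesodermal tissues. No peak was shared in its span. With so few peaks the intervals, 0 to 43.4% for ES and 0 to 79.3% for MEF peaks, include the 26.1% and 21.6% of the whole lists. The 5 ES peaks had scores of 57, 45, 53, 12 and 23 from left to right, all in the lower part of the list, at percentiles from 0.882 to 36.3. The highest was chr6:30617627-30618025, 69.3 kb from the nearest MEF peak. The single MEF peak, chr6:30686929-30687327, had percentile 17.8 and lay 5.84 kb from an ES peak.

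In MEFs the stretch without a peak to the right of that peak ran from 30687328 to 30889777, or 202.5 kb, and 3.54% of the autosomal stretches of the MEF list were at least as long. This stretch too was picked as the longest of its span, and 162.7 kb of it lay inside. In windows of 300 kb tiled over the autosomes, 14.3% held at most 1 MEF peak. Neither list had a peak from 30761922 to 30889777. By the share of windows, a MEF-poor span of this kind was thus uncommon without being rare.

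Snrpn encodes a small nuclear ribonucleoprotein and lies at the control region of the paternally expressed domain that corresponds to the human Prader-Willi region. It was the emptiest of the 8 loci. The span lay wholly inside a stretch of 951.6 kb without an ES peak, from 66567141 to 67518787. Of the 42529 autosomal stretches between ES peaks, 69 were at least as long (0.162%). In windows of 500 kb, 237 of 4834 held no ES peak (4.90%), and 4.16% held at most 2 peaks of both lists together.

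The 2 MEF peaks of Snrpn were chr7:67245553-67245951, at percentile 7.65, and chr7:67292871-67293269, at percentile 67.7. The nearest ES peak was 273.2 and 225.9 kb away. To their left neither list had a peak from 66567141 to 67245552, or 678.4 kb, and 31 of the 82472 autosomal stretches between peaks of either list were at least as long. The flanks of Snrpn were sparse as well, with 10 ES and 7 MEF peaks in 1000 kb and none of them shared. The intervals of this sharing, 0 to 27.8% for ES and 0 to 35.4% for MEF peaks, include the 26.1% and 21.6% of the whole lists. An absent peak says only that none was called, and how well reads can be placed in this region was not examined.

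Pooled over the loci, shared peaks had higher median ranks than unshared ones. The median percentile of shared peaks was 74.2 in ES cells (n = 31) and 63.9 in MEFs (n = 30), against 37.4 for the 50 ES-only and 42.9 for the 64 MEF-only peaks. Without the Grb10 block the shared medians were 64.5 and 55.3. Without the whole Grb10 locus the shared ES median was 49.2 (n = 15), against 46.6 for all ES peaks there. At Dlk1-Meg3 the shared ES median was 19.7, below the 34.2 of all its ES peaks. The shared ES peak of Gnas, at 46.0, was below the median of 57.3 there. At Grb10, Rasgrf1, Peg3 and Igf2r the shared ES median was above that of all ES peaks. In the whole lists the medians were 60.1 and 72.0 for shared peaks and 47.2 and 46.7 for the others. The order was thus the same in the pooled loci and in the whole lists, but not at every locus.

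Peaks above percentile 90 were concentrated at Grb10. In ES cells 12 of the 81 peaks were that high, against 10.2% of the whole list, and 10 of the 12 lay at Grb10, with the others at Peg3 and Igf2r. In MEFs 10 of the 94 peaks were, against 10.3% of the whole list, with 8 at Grb10 and the others at Dlk1-Meg3 and Igf2r. Leaving out Grb10, 2 of 60 ES peaks and 2 of 69 MEF peaks exceeded this level.

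Partners of shared sites did not always lie close together in rank or position. The 31 shared ES peaks lay at a median of 75 bp from their nearest MEF peak, against 45 bp in the whole list, and 54.8% were within 100 bp, against 73.4%. The ES percentile was the higher one in 16 pairs (51.6%, against 42.3% in the whole list) and the MEF percentile in 15. The percentiles differed by more than 50 points in 5 of the 31 pairs (16.1%, against 24.2% in the whole list), namely 1 at Dlk1-Meg3, 2 at Grb10 and 2 at Rasgrf1. In 9 pairs both percentiles exceeded 90 (29.0%, against 7.51% in the whole list), and all of these were at Grb10. Most lay in its block, without which 2 of 23 pairs were that high (8.70%). Several ES peaks of the block had the same nearest MEF peak, so the 9 pairs are not 9 separate sites.

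**Figure D5:**
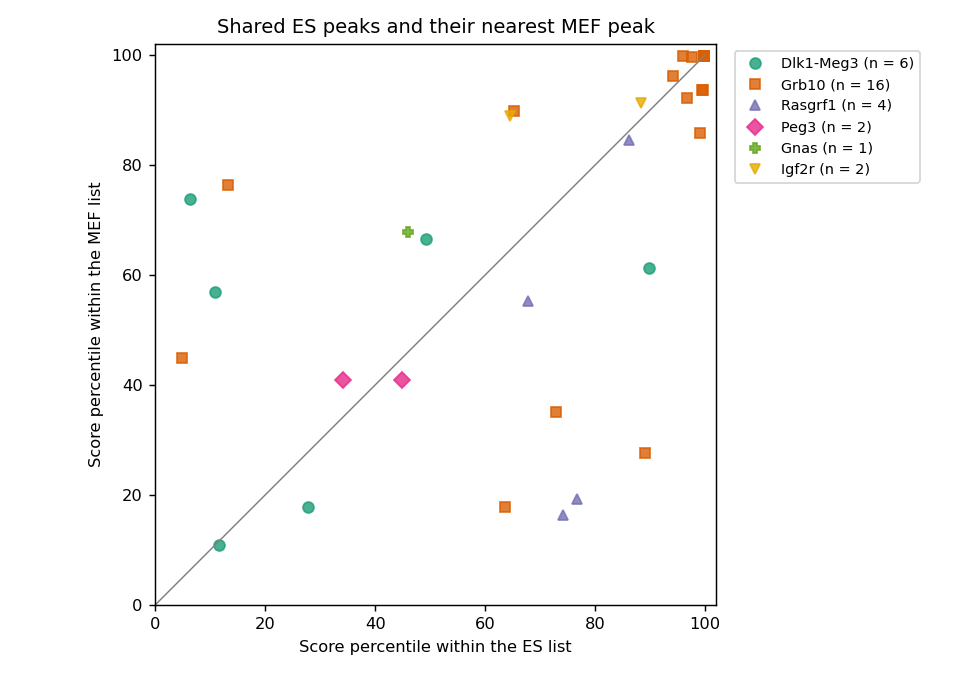
Score percentile in the ES list (x axis) and in the MEF list (y axis) for the 31 shared ES peaks of the loci and their nearest MEF peaks, with the diagonal of equal rank. Symbols give the locus. The points in the upper right corner, above 90 on both axes, are the 9 Grb10 pairs, and the 4 Rasgrf1 points lie below the diagonal.

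Pooled over the loci, unshared peaks lay somewhat closer to the other list than on the autosomes, though not at every locus. The 50 ES-only peaks had their nearest MEF peak at a median of 7.90 kb, against 10.8 kb on the autosomes, and the 64 MEF-only peaks had their nearest ES peak at 8.07 kb, against 15.1 kb. ES-only medians were above the autosomal one at Mest (57.5 kb), Peg3 (26.8) and Rasgrf1 (11.7), and below it at Dlk1-Meg3, Grb10, Gnas and Igf2r. MEF-only medians were above it at Snrpn (249.6 kb) and Peg3 (21.4) and below it at the other loci. The spans were also denser in peaks than the autosomes, and distances at equal density were not tested. Within 1 kb of the other list were 3 ES-only and 5 MEF-only peaks (6% and 7.81%), near the 7.23% and 5.86% of the autosomes. Counted as places of overlapping peaks, the loci held 140, of which 26 had peaks of both cell types, 50 of ES cells alone and 64 of MEFs alone. Places with peaks of both cell types were thus 18.6% (13 to 25.8), against 12.8% in the whole lists. Grb10 had a large part in this, with 11 of its 27 places (40.7%). The other loci ran from 0% at Mest and Snrpn to 21.1% at Rasgrf1.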

How the data were processed

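The authors deposited 1 list of peaks per library as BED lines with a whole-number score, and the build is mm9 per the submitters' processing notes. Not given in the sources used here are the aligner, peak caller, threshold, input control, filters and read depth, so weak binding under the threshold cannot be seen. Every peak spans 399 bp, and 1 was added to each deposited start. The deposited score, which no label or file defines, was turned into a percentile within its own list and never compared as a value between lists.

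Peaks were assigned to a span by their midpoint. Overlap was computed from the distance between starts, was checked with bedtools 2.31.1 and was tested on simulated lists. Windows that overlap a span were left out of its tiled windows, and autosomal densities used the end of the last peak on each of 19 autosomes. Percentages have 95% Wilson intervals and densities 95% Poisson intervals. With 1 library per cell type no test between cell types was made. The members and the lists were chosen with earlier results of these data known. Regions were named by rule: all shared sites, the highest-scoring unshared peak of each list and the longest stretch without a peak in each locus. Other peaks named, the Grb10 block and the promoter motif were chosen after seeing the data. Alternatives were 2 other overlap rules, 2 score thresholds, spans changed by 50 kb at both borders, and joining peaks within 500 bp. Scripts ran under Python 3.11.15 with scipy 1.17.1, pandas 2.3.3, matplotlib 3.10.9 and numpy 2.4.6.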

Additional observations from a re-analysis of the deposited data

How the results depend on the processing

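Of 47 alternative values for the loci as a whole, 38 stayed within the interval of the reported value (for numbers, within 1.5 times) and 9 moved. Of 121 values for single loci, 9 moved. The intervals of single loci are wide, so staying within them says little about stability. At Mest the MEF percentage of peaks counted as staying when it went from 16.7% (3.01 to 56.4) to 36.4% with spans 50 kb longer. With spans 50 kb shorter on both sides, sharing at Gnas was 0% in both lists (0 to 35.4 for ES and 0 to 27.8 for MEF peaks). Among the 50% of peaks with the higher scores, sharing at Peg3 was 0% in both lists (0 to 79.3 for ES and 0 to 65.8 for MEF peaks), where few peaks were left. It was 0% of ES peaks at Gnas (0 to 43.4) and 93.3% of ES peaks at Grb10 (70.2 to 98.8). MEF peaks were then 30.8% of the peaks at Rasgrf1 (12.7 to 57.6). With 50% of both peaks overlapping, 52.4% of ES peaks were shared at Grb10. With equally long lists the MEF peak of Mest was lost (0%). For ES peaks the shared percentage (38.3%) came to 28.4% when 50% of both peaks had to overlap, to 51.2% among the 50% of peaks with the higher scores and to 25.0% without the Grb10 locus. For MEF peaks it (31.9%) came to 23.2% without Grb10. The higher-scoring 50% of each list left 41 ES and 44 MEF peaks, or 13.4 and 14.4 per Mb, by its own construction. With the lowest-scoring MEF peaks dropped until both lists were equally long, the MEF density was 24.3 per Mb. Leaving out Grb10 or its block was chosen after seeing the data. No paired analysis was possible because the cell types have a single library each. The effect of read depth, which is unknown, was not tested.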
